A study of Mus musculus with 9 samples.

Results

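Transcription factors that pattern the forebrain and midbrain were followed across FACS-sorted cells of mouse neural tube organoids. The 10 genes were chosen by symbol: Six3, Lhx2, Rax, Nkx2-1, Hesx1, Otx1, Otx2, Dmbx1, En1 and En2. All 10 were found among the 54532 genes of the counts table. The organoids grew as clones in Matrigel from R1 mouse embryonic stem cells, a single line that carries the fluorescent FoxA2-Venus reporter in every group. The medium was replaced at Day 2, and cells were sorted with a GFP filter set 66 h later. There were 3 groups of 3 biological replicates. SAG GFP+ cells grew in N2B27 medium with SAG, which activates Smoothened in the hedgehog pathway. RA GFP+ and RA GFP- cells grew in N2B27 with all-trans retinoic acid (RA). The RA concentration is 250 in the sources, with nM as the unit in one place and µM in another, and this was not settled. SAG is named only in the sample titles, with no dose, and the titles name no RA for these libraries. A SAG GFP- group was not analysed here, so SAG GFP+ and RA GFP- cells differ in medium and in sort together.

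The brain end of the neural tube is divided early by transcription factors. Otx2 and its relative Otx1 mark the territory in front of the midbrain-hindbrain boundary. Six3, Rax, Lhx2 and Hesx1 act in the anterior neural plate, where the forebrain and the eye field form, and Nkx2-1 marks the ventral forebrain, including the hypothalamus. Dmbx1 is a paired-type homeobox gene of the midbrain. The engrailed paralogues En1 and En2 are switched on around the midbrain-hindbrain boundary, or isthmus, where Pax2, Pax5, Pax8, Fgf8 and Wnt1 also act. RA is known as a signal that favours hindbrain and spinal cord fates over these anterior ones. Several of these genes also work elsewhere, Otx2 in pluripotent cells, Hesx1 in the pituitary primordium and Nkx2-1 in thyroid and lung endoderm.

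Libraries held 25281871 to 29763765 counts. Foxa2, the gene behind the sort, stood at 205 to 326 CPM (counts per 1000000 counts of the library) in SAG GFP+, 133 to 184 CPM in RA GFP+ and 1.33 to 2.51 CPM in RA GFP- libraries. All 6 neural progenitor markers examined (Sox1, Sox2, Sox3, Pax6, Nes and Fabp7) were detected in every library. Counts differed between the replicates of each group by more than sampling noise (chi-square per degree of freedom 19.7 to 69.9), and each library was counted as its own replicate. In bulk samples such as these, fewer cells of a type and less RNA per cell cannot be told apart.

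The 10 genes were expressed at low levels. Together they held 338, 378 and 494 counts in SAG GFP+ libraries, 592, 667 and 710 in RA GFP+ libraries and 766, 960 and 1383 in RA GFP- libraries. These sums did not overlap between groups, and none passed 0.00496% of a library's counts. En2 alone gave 1680 of the counts in RA GFP- libraries, against 276 in RA GFP+ and 88 in SAG GFP+ libraries. The sums therefore do not stand for the 10 genes as a set. By mean CPM per kilobase of exon over all libraries, the genes lay between the 0.752 percentile (Rax) and the 39.8 percentile (En2) of the 16772 genes with enough counts to test. Of the 10 genes, 9 had enough counts, and Otx1 did not.

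The order of the genes differed between groups. On the scale of CPM per kilobase, En1 led in SAG GFP+ cells with 3.03 ± 0.998 (SD, n = 3), above Lhx2 with 0.735 ± 0.0581 and Otx2 with 0.507 ± 0.224. In RA GFP+ cells Hesx1 led with 2.29 ± 0.409 CPM per kilobase. The next genes were Lhx2 at 1.07 ± 0.218, En2 at 0.922 ± 0.482, Otx2 at 0.739 ± 0.572 and Dmbx1 at 0.66 ± 0.0291, and the library ranges of neighbours in that order overlapped. In RA GFP- cells En2 with 5.84 ± 1.66 and Hesx1 with 4.53 ± 2.24 CPM per kilobase overlapped each other and stood clear of Otx2 with 1.34 ± 0.599. Six3 and Otx1 were at the bottom of RA GFP- cells, at 0.0413 ± 0.0193 and 0.0364 ± 0.0282 CPM per kilobase.

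**Figure D1:**
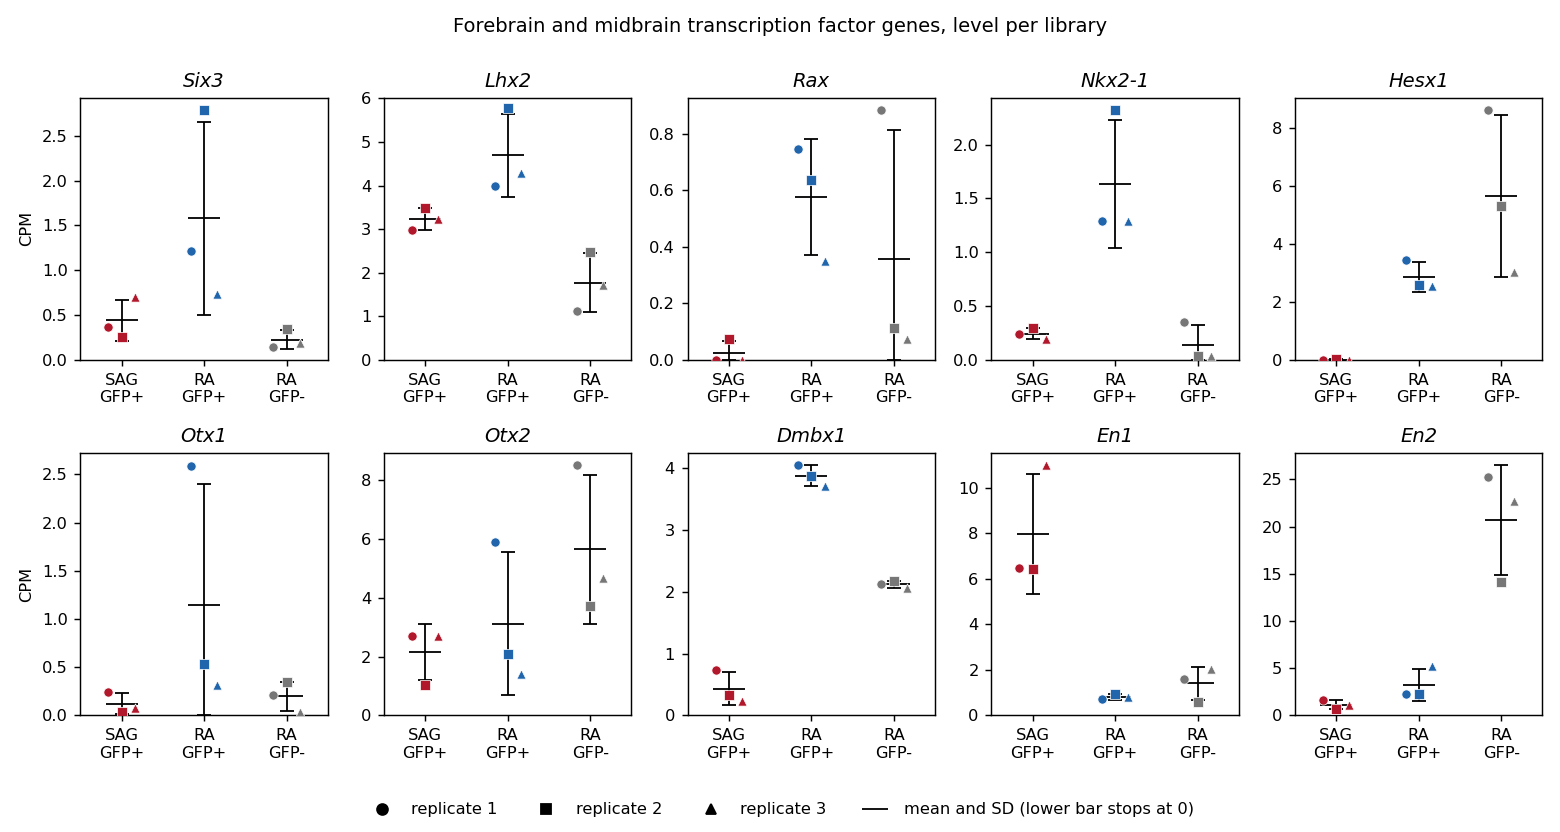
Level of each of the 10 genes in CPM (vertical axis, own scale per gene) in SAG GFP+, RA GFP+ and RA GFP- libraries; symbols are replicates and bars are the mean and SD of 3 libraries. En1 stands at 6.41 to 11 CPM in SAG GFP+ libraries and no higher than 2.02 CPM elsewhere, while En2 stands at 14.1 to 25.2 CPM in RA GFP- libraries and no higher than 5.23 CPM elsewhere.

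The comparison of RA GFP+ with RA GFP- cells asks which of these genes go with FoxA2-Venus inside RA-treated organoids. Six3, Lhx2 and Nkx2-1, genes of the anterior neural plate and ventral forebrain, were higher in GFP+ cells, and En2 was lower. Calls are genes with a Benjamini-Hochberg adjusted p under 0.05 in edgeR's quasi-likelihood test over all tested genes. Of the 9 tested genes, 3 were higher and 1 lower, where 8.49% of all tested genes were higher, 8.43% lower and 16.9% either. Of all 10 genes, 4 lay higher and 1 lower in every GFP+ library than in any GFP- library, which holds for 18.3% and 18.1% of tested genes and for 36.4% in either direction. The median log2 fold change of the 9 genes was 0.66, against -0.018 for all tested genes.

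Nkx2-1 (ENSMUSG00000001496, chromosome 12, 56531958 to 56536908, minus strand, GRCm38), a homeobox gene of the hypothalamus, had 1.29, 2.32 and 1.29 CPM in RA GFP+ replicates 1 to 3. It had 0.353, 0.0381 and 0.0381 CPM in RA GFP- cells, which is 10, 1 and 1 counts. The groups did not overlap, and GFP+ cells were 10.9-fold higher (3.44 on the log2 scale, SE 0.71, adjusted p = 0.00621). The log2 fold change was 5.27 with RA GFP- replicate 1 left out.

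Six3 (ENSMUSG00000038805, chromosome 17, 85613608 to 85629302, plus strand), needed for the anterior forebrain and eye, stood at 1.22, 2.79 and 0.732 CPM in RA GFP+ and 0.141, 0.343 and 0.19 CPM in RA GFP- libraries. Every GFP+ library lay above every GFP- library by a log2 fold change of 2.80 (SE 0.65, adjusted p = 0.0116). The RNA transcribed from the opposite strand of this locus, Six3os1, gave 3.53, 4 and 1.43 CPM in RA GFP+ and 0.565, 0.572 and 0.19 CPM in RA GFP- libraries, a log2 fold change of 2.74 (SE 0.64, adjusted p = 0.0123). The annotated exons of Six3os1 cover 1.95% of the exon bases of Six3, and whether reads were counted by strand is not given in the sources used here.

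Lhx2 (ENSMUSG00000000247, chromosome 2, 38339281 to 38369733, plus strand), a LIM-homeobox gene of the eye field and cortex, stood at 4, 5.78 and 4.29 CPM in RA GFP+ libraries. In RA GFP- libraries it stood at 1.13, 2.48 and 1.71 CPM, all below the GFP+ values (log2 fold change 1.40, SE 0.33, adjusted p = 0.0126). RA GFP+ replicate 2 held the highest value of Six3, Lhx2 and Nkx2-1 alike. Without that library, Six3 had a log2 fold change of 2.10 (adjusted p = 0.0749), Lhx2 of 1.23 (adjusted p = 0.0638) and Six3os1 of 2.47 (adjusted p = 0.0547), while Nkx2-1 was still called. The range of adjusted p over all 16 alternatives was 0.000425 to 0.0749 for Six3 and 0.000315 to 0.0638 for Lhx2.

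The promoter windows of these 3 genes are shown because the genes were higher together in RA GFP+ cells. Each window runs from 250 bases before to 50 bases after a RefSeq transcription start (GRCm38.p6), is printed 5′ to 3′ on the gene's strand, and has motif matches in capitals. For Lhx2 the first of 2 annotated windows is given, and the Six3 window lies inside the longer gene model given above.
Six3, chr17:85620584-85620883, plus strand: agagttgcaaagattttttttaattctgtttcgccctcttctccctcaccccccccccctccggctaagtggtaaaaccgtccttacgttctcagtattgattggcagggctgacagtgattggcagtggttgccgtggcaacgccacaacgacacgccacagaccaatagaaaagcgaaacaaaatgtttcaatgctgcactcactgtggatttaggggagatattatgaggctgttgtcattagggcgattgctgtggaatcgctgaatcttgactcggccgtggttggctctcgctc
Lhx2, chr2:38339031-38339330, plus strand: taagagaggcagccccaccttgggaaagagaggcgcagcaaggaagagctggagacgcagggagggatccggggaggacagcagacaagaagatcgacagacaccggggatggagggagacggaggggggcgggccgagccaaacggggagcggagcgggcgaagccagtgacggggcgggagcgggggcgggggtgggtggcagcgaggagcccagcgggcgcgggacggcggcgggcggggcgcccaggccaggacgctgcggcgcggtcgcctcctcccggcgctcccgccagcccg
Nkx2-1, chr12:56536859-56537158, minus strand: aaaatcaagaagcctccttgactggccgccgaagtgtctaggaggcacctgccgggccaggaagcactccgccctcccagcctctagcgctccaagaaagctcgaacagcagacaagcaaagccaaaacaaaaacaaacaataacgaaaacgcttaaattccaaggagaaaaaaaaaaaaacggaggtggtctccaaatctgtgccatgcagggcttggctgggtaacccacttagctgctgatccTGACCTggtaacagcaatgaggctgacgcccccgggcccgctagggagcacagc
The 4 motifs searched, on both strands, were TGTTTNC (FOX-like, in 20.5% of 32851 mouse windows of the same length), TAATCC (bicoid-like, in 7.06%), AGGTCA (a nuclear receptor core site, in 16.3%) and GACCACCCA (GLI-like, in 0.253%). No matches overlapped. The printed windows held a single match, AGGTCA read on the opposite strand of the Nkx2-1 window (bases 247 to 252). The G and C content was 50% for Six3, 74.7% for Lhx2 and 53.7% for Nkx2-1, against a median of 52.7% over all windows. Windows were at hand for 7 of the 10 genes. Among the others, a TGTTTNC match was found in Hesx1 and in 3 of the 4 windows of Otx2, one of which also held a TAATCC match (bases 40 to 45, opposite strand). These matches describe letters and not factor binding.

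Rax (ENSMUSG00000024518), the eye field homeobox gene, was not called in this comparison. It stood at 0.745, 0.638 and 0.349 CPM in RA GFP+ and 0.883, 0.114 and 0.0761 CPM in RA GFP- libraries, with the highest value in a GFP- library. The log2 fold change was 0.66 (SE 0.85, adjusted p = 0.657), and 2.55 without RA GFP- replicate 1 (range of adjusted p over the alternatives 0.0917 to 0.911). An antisense gene, Raxos1, covers 27.4% of the exon bases of Rax and had 0 counts in all libraries. Otx1 (ENSMUSG00000005917, chromosome 11, 21994764 to 22002897, minus strand), the relative of Otx2, had 66, 16 and 9 counts in RA GFP+ and 6, 9 and 1 counts in RA GFP- libraries. RA GFP+ replicate 1 held 66 of its 116 counts in all libraries, and GFP+ and GFP- values overlapped as groups, although GFP+ had more CPM in 3 of 3 same-numbered pairs. With no filter on low counts Otx1 was called higher in edgeR.

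Otx2, Hesx1 and Dmbx1 were not called between the RA groups, although each differed in a single direction in all same-numbered pairs. Otx2 (ENSMUSG00000021848, chromosome 14, 48657677 to 48673819, minus strand) stood at 5.88, 2.08 and 1.4 CPM in RA GFP+ and 8.51, 3.73 and 4.68 CPM in RA GFP- replicates 1 to 3. It had fewer CPM in the GFP+ library of each pair, while the groups as a whole overlapped (-0.86 on the log2 scale, SE 0.54, adjusted p = 0.329). Its antisense neighbour Otx2os1, over 3.65% of its exon bases, had 0 counts in each SAG GFP+ library, 0, 1 and 2 in RA GFP+ and 19, 5 and 1 in RA GFP- libraries. Hesx1 (ENSMUSG00000040726, chromosome 14, 26994416 to 27002329, plus strand), a homeobox repressor, stood at 3.45, 2.59 and 2.55 CPM in RA GFP+ and 8.61, 5.3 and 3.05 CPM in RA GFP- libraries. GFP+ had fewer CPM in 3 of 3 pairs (-0.98 on the log2 scale, SE 0.41, adjusted p = 0.132). Dmbx1 (ENSMUSG00000028707, chromosome 4, 115915119 to 115939926, minus strand) stood at 4.04, 3.86 and 3.7 CPM in RA GFP+ and 2.12, 2.17 and 2.06 CPM in RA GFP- libraries. Its groups did not overlap and its replicates lay close together (log2 fold change 0.87, SE 0.36, adjusted p = 0.129). With the replicate number as a block in the 6 RA libraries, which the data pair by number, all of these passed. None of them passed with the block over all 9 libraries (edgeR adjusted p = 0.0999 for Otx2, 0.0974 for Hesx1 and 0.103 for Dmbx1), and Dmbx1 also passed with no block in the fit of the 6 RA libraries (adjusted p = 0.0457). The blocked edgeR log2 fold changes were -1 for Otx2 (adjusted p = 0.0182), -0.89 for Hesx1 (adjusted p = 0.0278) and 0.87 for Dmbx1 (adjusted p = 0.026). The blocked fit of 6 libraries called 4 of the 9 genes higher and 3 lower, and 2615 genes higher and 2625 lower in all.

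En2 (ENSMUSG00000039095, chromosome 5, 28165694 to 28172166, plus strand) had the smallest adjusted p of the 9 genes between the RA groups. It stood at 2.23, 2.32 and 5.23 CPM in RA GFP+ and 25.2, 14.1 and 22.7 CPM in RA GFP- libraries, and was 6.32-fold lower in GFP+ cells (edgeR adjusted p = 0.00104). This call held in each of the 16 alternatives. Its paralogue En1 (ENSMUSG00000058665, chromosome 1, 120602418 to 120607992, plus strand) stood at 0.706, 0.941 and 0.802 CPM in RA GFP+ and 1.62, 0.61 and 2.02 CPM in RA GFP- libraries. These values overlapped, and En1 was not called (log2 fold change -0.79, SE 0.44, adjusted p = 0.259).

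**Figure D2:**
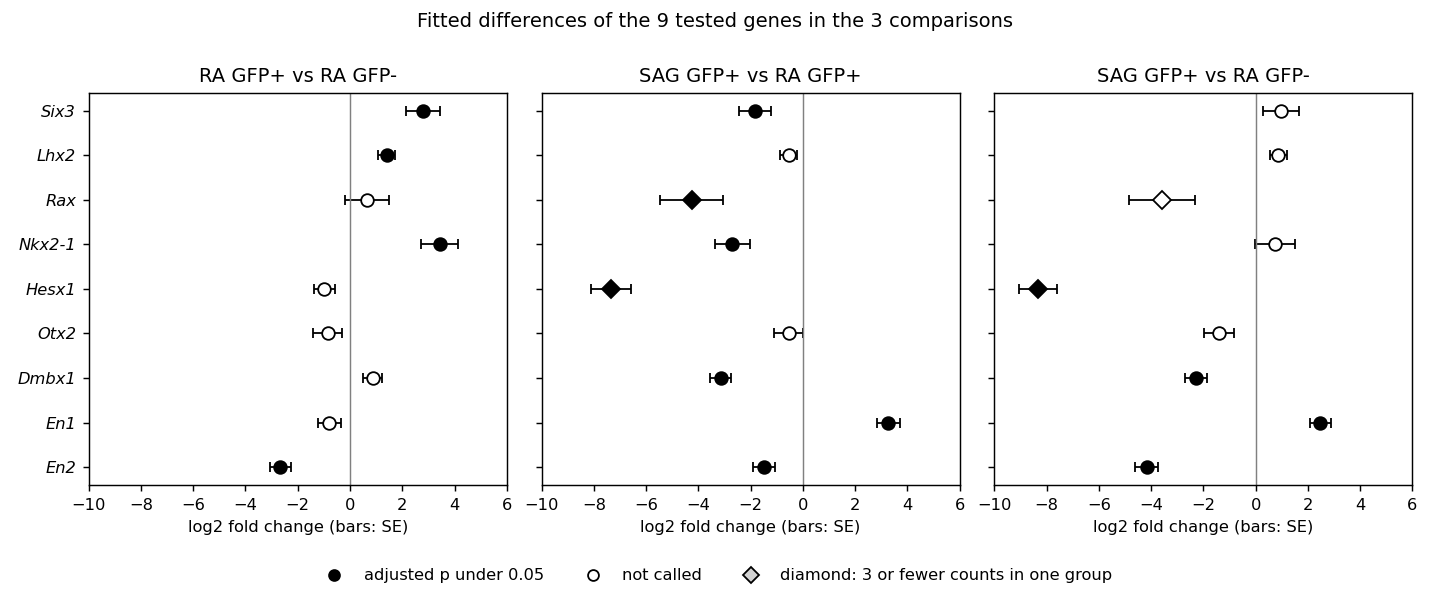
Log2 fold changes (horizontal axis, with bars of 1 SE) of the 9 tested genes in the 3 comparisons; filled symbols have an adjusted p under 0.05, and diamonds mark genes with 3 or fewer counts in one group, whose fitted value depends on the prior count. En1 lies right of 0 and En2 left of 0 in the 2 comparisons with SAG GFP+ cells.

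The comparison of SAG GFP+ with RA GFP+ cells sets the same sort side by side in 2 media. The anterior genes Hesx1, Rax, Nkx2-1 and Six3 were lower under SAG, as were Dmbx1 and En2, and En1 alone was higher. Of the 9 tested genes, 6 were lower and 1 higher, where 14.8% of all tested genes were lower, 9.78% higher and 24.5% either. The median log2 fold change of the 9 genes was -1.83, against -0.017 for all tested genes. Of all 10 genes, 8 lay lower and 1 higher in every SAG GFP+ library than in any RA GFP+ library, which holds for 23.1% and 19.8% of tested genes and for 42.9% in either direction. The libraries of SAG GFP+ cells serve in this comparison and in that with RA GFP- cells, and those of RA GFP+ cells in this one and in that above, so the comparisons are not independent.

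Hesx1 was nearly absent under SAG. SAG GFP+ libraries gave 0, 1 and 0 counts, where 3 counts correspond to 0.112 to 0.122 CPM, and RA GFP+ libraries gave 88, 77 and 73 counts. The ratio of SAG GFP+ to RA GFP+ over the pooled libraries was 0.00458, with an exact 95% interval of 0.000116 to 0.0258 for counting error (edgeR adjusted p = 4.64e-05). Rax gave 0, 2 and 0 counts in SAG GFP+ and 19, 19 and 10 counts in RA GFP+ libraries. Its ratio was 0.0455 (exact 95% interval 0.00535 to 0.173), with an edgeR adjusted p of 0.0239. The call ended on leaving out RA GFP+ replicate 1 (0.0657) or 2 (0.0627), or SAG GFP+ replicate 1 (0.0591) or 3 (0.0864). Over its 14 alternatives the adjusted p of Rax ran from 0.00137 to 0.0864.

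Nkx2-1 stood at 0.244, 0.3 and 0.195 CPM in SAG GFP+ cells, below the 1.29, 2.32 and 1.29 CPM of RA GFP+ cells (log2 fold change -2.71, SE 0.67, edgeR adjusted p = 0.0123). It was not called without RA GFP+ replicate 2 (log2 fold change -2.37, adjusted p = 0.0628; range over the alternatives 0.000727 to 0.0628). Six3 stood at 0.367, 0.262 and 0.701 CPM in SAG GFP+ cells, just under the lowest RA GFP+ library at 0.732 CPM. Its call was marginal (log2 fold change -1.83, SE 0.61, edgeR adjusted p = 0.0469) and was lost in 10 of 16 alternatives. The highest of these adjusted p was 0.273, without RA GFP+ replicate 2, where the log2 fold change was -1.13. Leaving out RA GFP+ replicate 1 or any of the RA GFP- libraries, or SAG GFP+ replicate 1 or 2, also ended the call (adjusted p = 0.0511 to 0.165). Six3os1 at 0.163, 0.787 and 0.973 CPM in SAG GFP+ cells was lower as well (log2 fold change -2.21, SE 0.62, edgeR adjusted p = 0.0232), which did not hold on leaving out RA GFP+ replicate 1 (0.0708) or 2 (0.0928), or SAG GFP+ replicate 2 (0.0605). The adjusted p of Six3os1 ran from 0.000641 to 0.0928. Lhx2 had 2.97, 3.48 and 3.23 CPM in SAG GFP+ against 4 to 5.78 CPM in RA GFP+ libraries. It was not called (log2 fold change -0.54, SE 0.32, edgeR adjusted p = 0.253), although the groups did not overlap.

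Among the midbrain genes, Dmbx1 stood at 0.733, 0.337 and 0.234 CPM in SAG GFP+ cells and was 8.86-fold lower than in RA GFP+ cells (log2 fold change -3.15, SE 0.41, edgeR adjusted p = 0.000239). That call held in each of the 16 alternatives. Otx2 gave no call. Its level was 2.69, 1.05 and 2.69 CPM in SAG GFP+ libraries, which overlapped the 5.88, 2.08 and 1.4 CPM of RA GFP+ libraries (log2 fold change -0.54, SE 0.55, edgeR adjusted p = 0.519). Its direction rested on RA GFP+ replicate 1, without which the log2 fold change was 0.29. Otx1 gave 6, 1 and 2 counts in SAG GFP+ cells, fewer than the 9 of the lowest RA GFP+ library. It was called lower in DESeq2, in edgeR with no filter on low counts, and in 5 of the 9 edgeR fits with a library left out.

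The engrailed paralogues moved apart. En1 stood at 6.48, 6.41 and 11 CPM in SAG GFP+ cells, 9.68-fold above RA GFP+ cells (log2 fold change 3.27, SE 0.44, edgeR adjusted p = 0.000296). En2 stood at 1.67, 0.674 and 1.13 CPM in SAG GFP+ cells and was 2.82-fold lower than in RA GFP+ cells (log2 fold change -1.50, SE 0.42, edgeR adjusted p = 0.0237). The En1 call held in each of the 16 alternatives. The En2 call ended on leaving out RA GFP+ replicate 3 (-0.98, adjusted p = 0.0942) or SAG GFP+ replicate 2 (0.0975) or 3 (0.0716), within a range of adjusted p of 0.000253 to 0.0975. On the scale of CPM per kilobase, En1 and En2 stood at 3.03 and 0.327 in SAG GFP+ cells, at 0.311 and 0.922 in RA GFP+ cells and at 0.54 and 5.84 in RA GFP- cells.

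SAG GFP+ cells were last set against RA GFP- cells, from which they differ in medium and in sort. Hesx1, Dmbx1 and En2 were lower in SAG GFP+ cells and En1 was higher, that is 3 lower and 1 higher of the 9 tested genes. Over all tested genes 16.5% were lower, 12% higher and 28.5% either. Of all 10 genes, 5 lay lower and 2 higher in every SAG GFP+ library than in any RA GFP- library, against 22.1% and 19% of tested genes, and 41.1% in either direction. The median log2 fold change of the 9 genes was -1.40, against -0.009 for all tested genes. The ratio of Hesx1 was 0.00227 (exact 95% interval 5.7e-05 to 0.0127, 1 count against 463). Dmbx1 was 4.85-fold lower (log2 fold change -2.28, SE 0.41, edgeR adjusted p = 0.00161) and En2 17.9-fold lower (-4.16, SE 0.44, adjusted p = 4.76e-05), while En1 was 5.59-fold higher (2.48, SE 0.42, adjusted p = 0.00117). These 4 calls held in each of the 16 alternatives.

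The other 5 tested genes were not called between SAG GFP+ and RA GFP- cells. Otx2 lay lower in every SAG GFP+ library (log2 fold change -1.40, SE 0.56, edgeR adjusted p = 0.0807) and passed in 6 of 16 alternatives, among them DESeq2 (adjusted p = 0.0291; range 0.00621 to 0.296). Lhx2 lay higher in every SAG GFP+ library (0.87, SE 0.33, edgeR adjusted p = 0.0714) and passed in 3 of 16 alternatives, among them DESeq2 (adjusted p = 0.04) and the fit without RA GFP- replicate 2 (0.0347; range 0.03 to 0.185). Rax gave 2 counts in SAG GFP+ against 25, 3 and 2 counts in RA GFP- libraries (ratio 0.0701, exact 95% interval 0.00811 to 0.276, edgeR adjusted p = 0.0506). It passed in 5 of 14 alternatives, among them those without RA GFP- replicate 2 or 3. Six3 (0.97, SE 0.68, edgeR adjusted p = 0.313) and Nkx2-1 (0.74, SE 0.78, adjusted p = 0.514) overlapped between the groups. Nkx2-1 passed without RA GFP- replicate 1 (log2 fold change 2.58, adjusted p = 0.0409), the library with 10 of the 12 counts of that group.

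**Figure D3:**
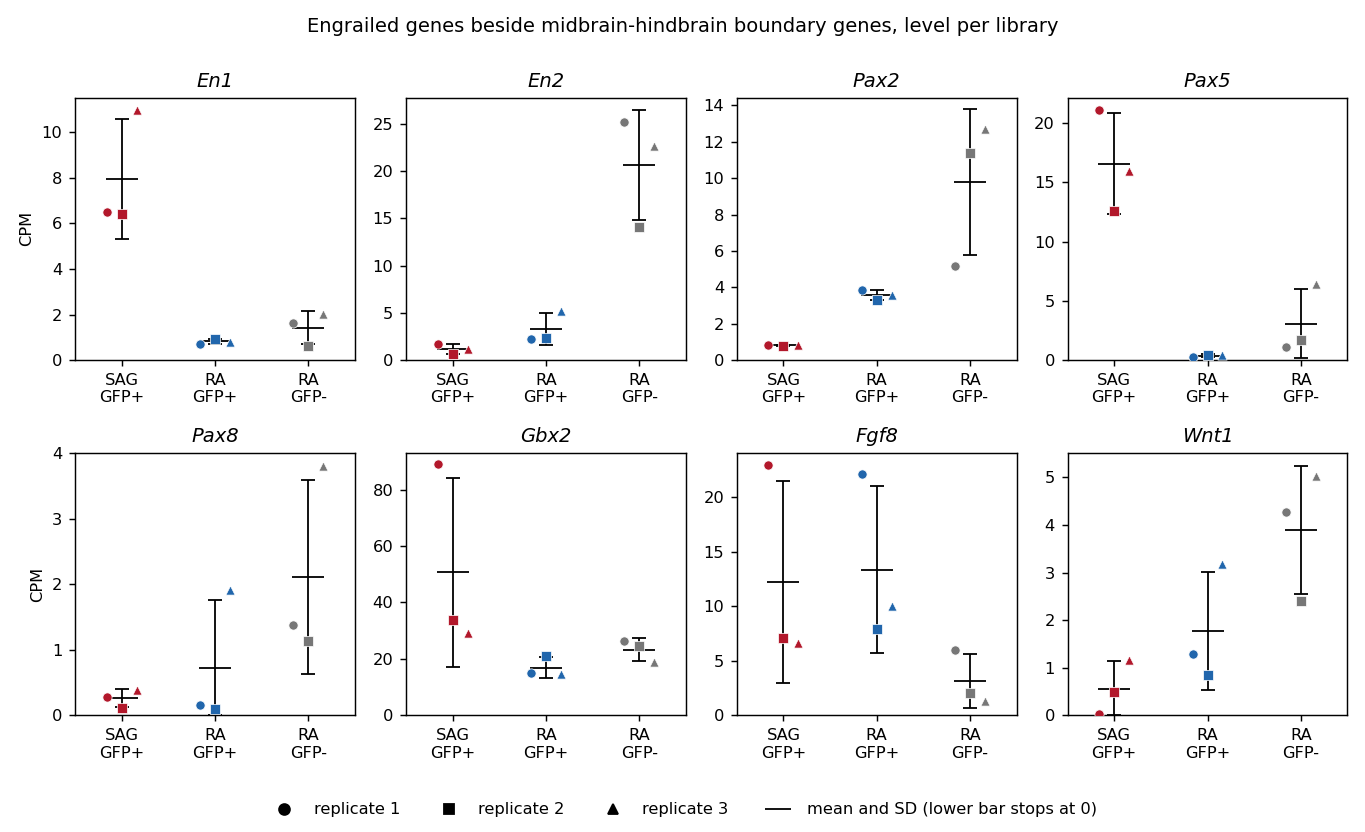
Level in CPM (vertical axis, own scale per gene) of En1, En2 and 6 genes of the midbrain-hindbrain boundary in SAG GFP+, RA GFP+ and RA GFP- libraries; symbols are replicates and bars the mean and SD of 3 libraries. Pax5 and En1 are highest in SAG GFP+ libraries, and En2 and Pax2 are highest in RA GFP- libraries.

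Among the boundary genes, Pax5 was higher and Pax2 lower in SAG GFP+ than in RA GFP+ cells, both picked out after their values were seen, while Fgf8, Fgf17, Pax8 and Wnt1 were not called there. Pax5, a paired-box gene of the isthmus, stood at 21.1, 12.6 and 16 CPM in SAG GFP+, 0.235, 0.437 and 0.453 CPM in RA GFP+ and 1.09, 1.71 and 6.39 CPM in RA GFP- libraries. It was higher in SAG GFP+ than in RA GFP+ cells (log2 fold change 5.44, SE 0.65, edgeR adjusted p = 0.00014) and than in RA GFP- cells (2.44, SE 0.54, adjusted p = 0.00586; 3.56 with RA GFP- replicate 3 left out), and lower in RA GFP+ than in RA GFP- cells (-3.00, SE 0.63, adjusted p = 0.00685; -1.88 with that library left out). Its relative Pax2 stood at 0.815, 0.787 and 0.818 CPM in SAG GFP+, 3.84, 3.33 and 3.56 CPM in RA GFP+ and 5.19, 11.4 and 12.7 CPM in RA GFP- libraries. Pax2 was lower in SAG GFP+ than in RA GFP+ cells (-2.14, SE 0.36, edgeR adjusted p = 0.00117) and than in RA GFP- cells (-3.59, SE 0.36, adjusted p = 3.42e-05). By group means, Pax5 had its order of groups in common with En1, as had Gbx2. Pax2, Pax8 and Wnt1 shared the order of En2. Fgf8 followed neither, with 12.2 ± 9.29 CPM in SAG GFP+, 13.4 ± 7.64 CPM in RA GFP+ and 3.13 ± 2.48 CPM in RA GFP- cells (SD, n = 3 each). Gbx2, an Otx2 antagonist of the anterior hindbrain, stood at 89.1, 33.7 and 29.2 CPM in SAG GFP+ and 15.1, 21.2 and 14.6 CPM in RA GFP+ libraries (1.58, SE 0.37, edgeR adjusted p = 0.00889), with SAG GFP+ replicate 1 far above the rest.

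Further genes of the same regions were read from 3 lists. In RA GFP+ against RA GFP- cells 8.49% of all tested genes were higher and 8.43% lower. In SAG GFP+ against RA GFP+ cells 9.78% were higher and 14.8% lower, and against RA GFP- cells 12% and 16.5%. These shares are the background for the called counts of all lists below, marker lists included. Of 18 other forebrain genes 14 could be tested. In RA GFP+ against RA GFP- cells 8 of them were higher (among them Six6, Vax1, Dlx1, Dlx2, Sim1, Foxd1 and Barhl2) and 2 lower (Lhx5 and Otp), with a median log2 fold change of 2.55. The strongest were Foxd1, a forkhead gene of the ventral diencephalon and retina (9.58 ± 2.32 CPM in RA GFP+ and 0.333 ± 0.124 CPM in RA GFP- cells, SD, n = 3 each, edgeR adjusted p = 8.01e-05), and Lhx5 (0.548 ± 0.242 and 6.43 ± 2.62 CPM, adjusted p = 0.000353). Foxd1 is also known from kidney stroma.

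In SAG GFP+ against RA GFP+ cells, 7 of the 14 forebrain genes were called lower (among them Fezf2, Dlx2, Sim1, Foxd1 and Barhl2), 0 higher and 7 not called, with a median log2 fold change of -2.02. Barhl2, a homeobox gene of the diencephalon and retina, stood at 0.0786 ± 0.0397 CPM in SAG GFP+ and 3.54 ± 1.84 CPM in RA GFP+ cells (log2 fold change -5.42, SE 0.72, edgeR adjusted p = 0.000274). Against RA GFP- cells, 5 of 14 were higher in SAG GFP+ cells, led by Dlx1 (7.19 ± 2.14 and 1.1 ± 0.75 CPM, edgeR adjusted p = 0.00192), and 5 lower, led by Lhx5 (0.209 ± 0.0615 and 6.43 ± 2.62 CPM, adjusted p = 3.55e-05). The median was 0.42.

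Of 11 midbrain and isthmus genes 9 could be tested. In RA GFP+ against RA GFP- cells Fgf8, the signal of the isthmus, was the 1 higher gene (log2 fold change 2.08, SE 0.63, edgeR adjusted p = 0.0425), which did not hold on leaving out RA GFP- replicate 2 (0.135) or 3 (0.118) or RA GFP+ replicate 1 (0.163; range 5.48e-07 to 0.163). Pax2 and Pax5 were the 2 lower ones, and the median was -1.14. In SAG GFP+ against RA GFP+ cells Pax5 was higher and Pax2 and Lmx1b lower (median -1.63). Lmx1b, a LIM-homeobox gene of the isthmus and of dopamine neuron progenitors, had a log2 fold change of -1.70 (SE 0.23, edgeR adjusted p = 0.000344). Against RA GFP- cells Pax5 and Fgf8 were higher in SAG GFP+ cells, and Pax2, Pax8, Wnt1, Lmx1a and Lmx1b lower (median -1.30).

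Of 10 hindbrain genes 9 could be tested. In RA GFP+ against RA GFP- cells 2 were higher and 2 lower (Gbx1 and Hoxa2), with a median of -0.46. Hoxa2, a patterning gene of the hindbrain segments, had a log2 fold change of -1.64 (SE 0.29, edgeR adjusted p = 0.00291). In SAG GFP+ against RA GFP+ cells, 5 were higher (Gbx2, Hoxa2, Hoxb1, Hoxb2 and Egr2) and 3 lower (among them Hoxb4), with a median of 1.58. Egr2, a zinc finger gene that marks hindbrain segments, stood at 83.5, 21.8 and 25.5 CPM in SAG GFP+ and 1.1, 1.61 and 1.01 CPM in RA GFP+ libraries (log2 fold change 5.12, SE 0.64, edgeR adjusted p = 0.000187; 4.27 without SAG GFP+ replicate 1). Against RA GFP- cells 4 hindbrain genes were higher in SAG GFP+ cells (Gbx2, Hoxb1, Hoxb2 and Egr2) and 2 lower (Gbx1 and Hoxb4), with a median of 0.60. Egr2 had a log2 fold change of 5.50 (SE 0.66, edgeR adjusted p = 0.000109) and Gbx1 of -2.22 (SE 0.44, adjusted p = 0.00296).

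**Figure D4:**
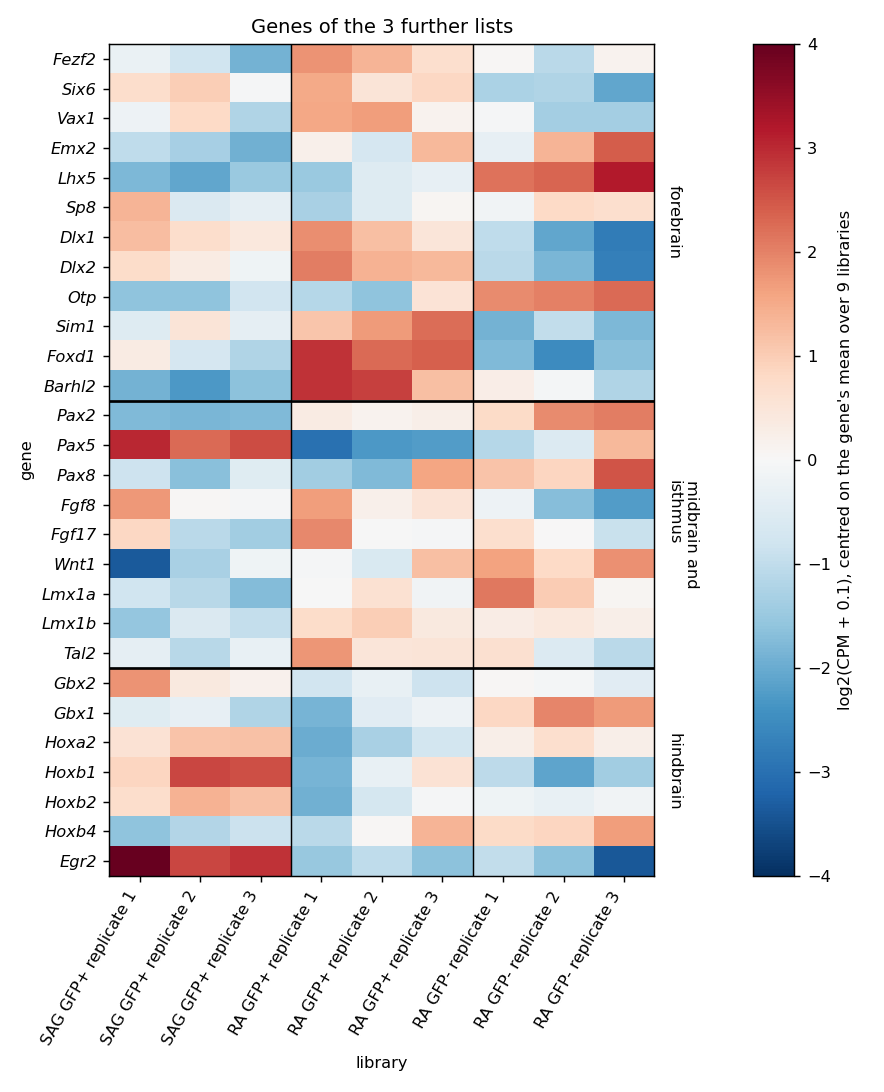
Relative level of 28 of the 32 tested genes of the forebrain, midbrain and isthmus, and hindbrain lists (rows) in the 9 libraries (columns); colour is log2(CPM + 0.1) centred on each gene's mean, red above and blue below it. Foxd1 and Barhl2 are red in RA GFP+ libraries, Lhx5 in RA GFP- libraries, and Pax5 and Egr2 in SAG GFP+ libraries.

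Markers of other cell types moved with the groups. The summed level of 10 endoderm markers was 5.51 to 14 CPM in SAG GFP+, 54.7 to 73.8 CPM in RA GFP+ and 8.34 to 10.4 CPM in RA GFP- libraries. Sox17 made up most of the RA GFP+ sum, with a mean of 46.3 CPM where the sum averaged 67 CPM. Afp, which marks visceral endoderm and liver, had 0 counts in every SAG GFP+ and RA GFP- library and averaged 1.08 CPM in RA GFP+ libraries. In RA GFP+ against RA GFP- cells 4 of the 7 tested endoderm markers were higher (Sox17, Afp, Gata4 and Gata6) and 0 lower. Of the 7 thyroid and lung markers, the lung surfactant genes Sftpb and Sftpc had 0 counts in all 9 libraries. The thyroid and pharynx gene Foxe1 stood at 7.9 to 9.99 CPM in RA GFP+ and 0.419 to 1.2 CPM in RA GFP- libraries (log2 fold change 3.29, SE 0.49, edgeR adjusted p = 0.000926). The part of these cells in the levels of Nkx2-1 and Hesx1 was not tested.

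Placode and surface ectoderm markers, 10 in all, summed to 57.1 to 75.6 CPM in SAG GFP+, 242 to 332 CPM in RA GFP+ and 95.9 to 158 CPM in RA GFP- libraries. Of these, 7 were higher and 1 lower in RA GFP+ than in RA GFP- cells. Their part in the levels of Six3, Lhx2 and Otx1, which placodes and eye tissue also use, was not tested. The 9 markers of pluripotent and primed epiblast cells summed to 234 to 650 CPM in SAG GFP+, 172 to 227 CPM in RA GFP+ and 903 to 1410 CPM in RA GFP- libraries. These sums averaged 385, 193 and 1110 CPM, of which Dnmt3b gave 250, 143 and 189 CPM. In RA GFP+ against RA GFP- cells 0 of the 9 were higher and 6 lower. In SAG GFP+ against RA GFP+ cells 3 were higher (Pou5f1, Nanog and Tdgf1) and 3 lower (Zfp42, Esrrb and Klf4). Against RA GFP- cells 1 was higher in SAG GFP+ cells and 7 lower. By replicate 1 to 3, the sums were 1410, 903 and 1020 CPM in RA GFP- libraries. Otx2 stood there at 8.51, 3.73 and 4.68 CPM and Hesx1 at 8.61, 5.3 and 3.05 CPM. RA GFP+ sums were 227, 180 and 172 CPM, with Otx2 at 5.88, 2.08 and 1.4 CPM and Hesx1 at 3.45, 2.59 and 2.55 CPM. SAG GFP+ sums were 650, 234 and 271 CPM, with Otx2 at 2.69, 1.05 and 2.69 CPM and Hesx1 at 0, 1 and 0 counts. The markers behind the sums differed between groups. In SAG GFP+ replicate 1, Dnmt3b gave 398 CPM and Pou5f1 171 CPM. Zfp42 gave 0.204 CPM there and 94.1 to 144 CPM in RA GFP- libraries. The part of pluripotent and primed epiblast cells in the levels of Otx2 and Hesx1 was not tested. Neural progenitor markers summed to 1010 to 1080 CPM in SAG GFP+, 337 to 514 CPM in RA GFP+ and 1030 to 1150 CPM in RA GFP- libraries, and floor plate markers to 884 to 1200, 762 to 1220 and 187 to 266 CPM in the same order of groups. All 6 neural progenitor markers were lower in RA GFP+ than in RA GFP- cells, and 5 were higher and 1 (Pax6) lower in SAG GFP+ than in RA GFP+ cells. The part of neural cell content in the levels of the 10 genes was not tested.

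**Figure D5:**
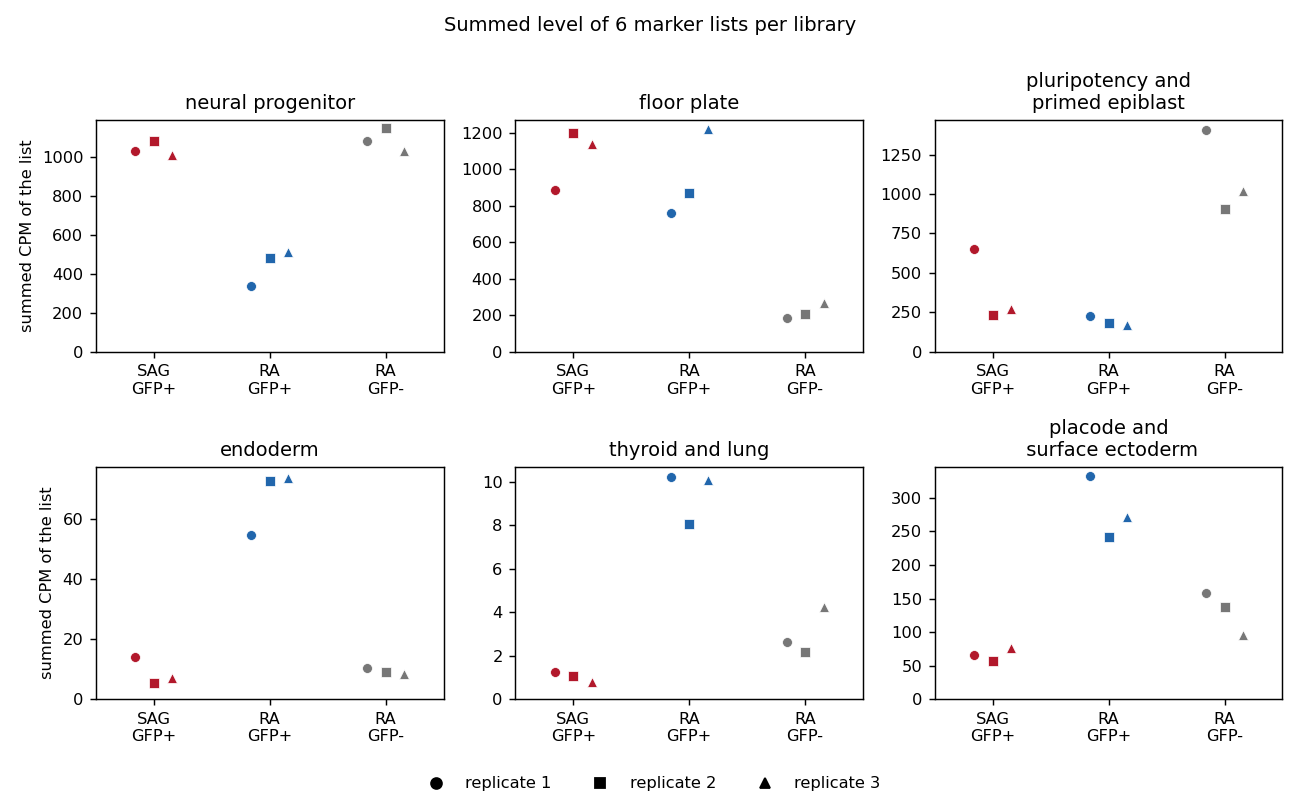
Summed CPM (vertical axis, own scale per list) of 6 marker lists in SAG GFP+, RA GFP+ and RA GFP- libraries; symbols are replicates. Endoderm sums are 54.7 to 73.8 CPM in RA GFP+ libraries and at most 14 CPM elsewhere, and pluripotency sums are 903 to 1410 CPM in RA GFP- libraries and at most 650 CPM elsewhere.

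Genes with the most similar profile were sought for En2, Otx2 and En1, the 3 tested genes with the highest mean CPM. Likeness was the root mean square difference of log2 CPM over the 9 libraries after centring each gene, and it is a description with no test. The closest to En2 were Platr22 (0.282) and Anxa8 (0.326), where the median over all tested genes was 1.81. Platr22 averaged 0.118 CPM in SAG GFP+, 0.398 CPM in RA GFP+ and 3.36 CPM in RA GFP- cells. The closest to En1 were Fam57b (0.307), Pcsk1 (0.361) and Htr3a (0.394), against a median of 1.48. Pcsk1, which encodes a prohormone convertase, averaged 7.68 CPM in SAG GFP+, 0.725 CPM in RA GFP+ and 1.01 CPM in RA GFP- cells. No gene came as close to Otx2, where Fxyd5 (0.435), Pla2g1b (0.436) and Fxyd2 (0.455) led and the median was 0.996.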

How the data were processed

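RNA-seq of poly(A) RNA was read from 9 libraries in 3 groups of 3. The deposited values are raw counts by Ensembl gene. FeatureCounts (Subread 1.6.2), Bowtie2 2.3.4.1 and Trim Galore 0.5.0 are named with the GRCm38 build, per the submitters' processing notes. Neither strand setting nor annotation release is given in the sources used. The labels' protocols name a directional library kit. Symbols, exon lengths and coordinates came from GENCODE M21 (GRCm38), which named 54495 of 54532 genes. Promoter sequences are RefSeq's.

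A joint model of the 9 libraries was fitted in edgeR 4.0.16 under R 4.3.3, with filterByExpr with a minimum count of 10 (16772 genes), TMM scaling (factors 0.972 to 1.03), quasi-likelihood tests, and Benjamini-Hochberg adjustment over all tested genes. CPM use the same scaling. The scripts were tested on simulated data. Log2 CPM for likeness used a prior count of 2. Intervals and floors (3 counts per library) cover counting error only. DESeq2 1.42.0, other scalings, no low-count filter, 2-group fits, replicate blocks and leaving out each library were alternatives, 16 in all. P-values measure the spread between the libraries, which the labels call biological replicates.

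The 10 genes and the lists were chosen with earlier results of these data known. From the 3 further lists, the called gene with the smallest adjusted p in each direction is named with its values; some genes of the lists are counted but not reported here by name. Pax2 and Gbx2 in other comparisons, Foxe1 and Afp, and the boundary genes plotted were chosen after their values were seen. Same-numbered RA GFP+ and RA GFP- libraries deviated together from their group means (correlation across genes of 0.273, 0.307 and 0.347), so replicate numbers were taken to pair them, and the replicate block within these 6 libraries is given where it changes a call.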

Additional observations from a re-analysis of the deposited data

How the results depend on the processing

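Over 50 gene results and up to 16 alternatives each, 737 values kept direction and side of the threshold, 34 lost a call, 20 gained one and 1 reversed. The reversal was Otx2 in SAG GFP+ against RA GFP+ cells without RA GFP+ replicate 1 (0.29, lowest -0.89 with RA GFP+ replicate 3 left out instead). With a library left out, the genes called higher in RA GFP+ against RA GFP- cells numbered 1 to 4 of the 10 (893 to 1684 of all genes) and those called lower 1 in each fit (890 to 1684 of all genes). The lowest counts came without RA GFP+ replicate 2 (1 of the 10 genes higher, 893 and 890 of all), and without RA GFP+ replicate 1 the lower ones of all genes numbered 915. In SAG GFP+ against RA GFP+ cells 3 to 6 of the 10 genes were lower (3 without RA GFP+ replicate 2) and 954 to 2092 of all genes higher (954 and 957 without RA GFP+ replicates 1 and 2), with 1712 to 2880 lower. Against RA GFP- cells 1 to 2 of the 10 were higher (1351 to 2581 of all genes) and 3 to 4 lower (2014 to 3295).

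Other alternatives moved 6 counts. The replicate block in the 6 RA libraries gave 3 lower of the 10 genes, 2615 higher and 2625 lower of all. In a fit of only SAG GFP+ and RA GFP+ libraries 3 of the 10 were lower, with Six3 (adjusted p = 0.0596) and En2 (0.0513) lost and no value for Rax. In SAG GFP+ against RA GFP- cells DESeq2 called 2 higher and 5 lower, no low-count filter gave 5 lower, and the replicate block over 9 libraries gave 2 higher. The cause of these shifts was not tested. Whether replicate numbers pair SAG with RA libraries was not settled, as same-numbered correlations differed in sign (r = 0.111, -0.0816 and 0.182 with RA GFP+, 0.175, -0.0218 and 0.242 with RA GFP-). In the 2-group fits with SAG libraries, the block called 1 of the 10 higher and 4 lower against RA GFP+. It called 1 higher and 4 lower against RA GFP-. For the SAG fits of this paragraph the share of all genes called is not given. Shifts in the counts of the 10 genes were therefore not set against shifts over all genes. The block over 9 libraries ended the call of Six3 against RA GFP+ (adjusted p = 0.0672) and added Otx2 (0.0189) and Lhx2 (0.03) against RA GFP-. Rax, Six3 and Nkx2-1 had too few counts for some 2-group fits and gave no value in them. Low counts limit Rax, Otx1, Six3 and Nkx2-1 most.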
